A study of Homo sapiens with 96 samples.

Results

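The genes described here are those of glycolysis and of the response to low oxygen, 36 by name, of which 34 were measured among 19775 genes on the array. They were listed by name and role, with earlier results of these data known: 11 enzymes and regulators of the steps from glucose phosphorylation by hexokinase to the triose phosphates, 7 enzymes of the steps from GAPDH to lactate, the glucose transporters SLC2A1 and SLC2A3, the pyruvate dehydrogenase kinases PDK1 and PDK3, the hypoxia-inducible factor HIF1A with the oxygen sensors EGLN1 and EGLN3, and 9 other genes induced by low oxygen. The lactate exporter SLC16A3 and the carbonic anhydrase CA9 had no probe set annotated to them alone and have no value. Where a gene had several probe sets the brightest one over the HaCaT constructs was read, and 31 of the 34 genes lay at or above the median level of all genes (6.10 on the log2 scale).

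Glycolysis splits glucose into pyruvate, and lactate dehydrogenase turns pyruvate into lactate when it is not burned in mitochondria. HIF1A protein is hydroxylated by the EGLN enzymes when oxygen is present and is then destroyed; when oxygen is short it is stable, pairs with ARNT and binds DNA next to genes for glucose uptake, glycolysis, blood vessel growth and mitophagy. In keratinocytes and in squamous carcinoma, growth factor signalling through RAS and PI3K is also known to raise HIF1A and glycolytic genes under ordinary oxygen, so these genes are commonly read as an output of receptor signalling.

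The series holds 96 Affymetrix U133 Plus 2.0 arrays of RNA, of which 89 came from HaCaT cells with a construct. HaCaT is a keratinocyte line that became immortal spontaneously. The study infected HaCaT cells with a lentivirus and selected them with puromycin, so that HaCaT-Mock is the control, HaCaT-EGFR overexpresses wild-type EGFR, HaCaT-HRAS expresses an activated HRAS mutant and HaCaT-PIK3CA an activated mutant of the PI3K catalytic subunit; the virus used a CMV promoter, so the levels of these proteins are not those of a tumour. Each line received PBS as the control (3 arrays, 2 in HaCaT-EGFR) or an inhibitor, for about a day per the study. The inhibitors were the irreversible ERBB kinase inhibitor afatinib at 10 nM (3 arrays), the EGFR kinase inhibitor gefitinib at 100 nM (3 arrays, 2 in HaCaT-PIK3CA) and the EGFR antibody cetuximab at 100 nM (3 arrays). Other cells of each line were transfected with an siRNA against EGFR (siEGFR, 3 arrays) or a scramble siRNA (3 arrays), and a further set carried the scramble siRNA together with PBS (2 arrays, 1 in HaCaT-Mock) or with each inhibitor (1 array each). The other 7 arrays came from the head and neck squamous carcinoma lines SCC1 and SCC25 (2 arrays each) and FaDu (2 arrays, one of them under PBS) and from parental HaCaT cells (1 array). No group was labelled as grown at low oxygen.

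The study reports that RT-PCR found more EGFR and HRAS mRNA in HaCaT-EGFR and HaCaT-HRAS than in HaCaT-Mock. Its western blots showed more phospho-EGFR, phospho-MAPK and phospho-AKT in HaCaT-EGFR, HaCaT-HRAS and HaCaT-PIK3CA, in that order. On these arrays EGFR and HRAS were not called higher in the lines that carry them. In HaCaT-EGFR against HaCaT-Mock under PBS 0 of 9 probe sets of EGFR were called by limma (2 had an unadjusted p under 0.05, and the changes were -0.11 to 0.42 on the log2 scale), the 1 probe set of HRAS read -0.22 (adjusted p = 0.19) in HaCaT-HRAS, and PIK3CA was not analysed here; where these probes lie against the introduced sequences is not known here, so the construct labels were not checked by them. Under siEGFR, EGFR mRNA was lower in each line, with log2 changes from -2.11 (HaCaT-Mock) to -1.71 (HaCaT-EGFR). The ERK phosphatase DUSP6, a readout of MAPK signalling, changed by -2.24 (log2) under the inhibitors over the 4 lines and by -0.59 in HaCaT-HRAS. DUSP6 was higher in HaCaT-HRAS than in HaCaT-Mock by 0.97 under PBS (adjusted p = 0.00062 by limma). Under scramble siRNA it was higher there by 0.74 (adjusted p = 0.0096 by limma). Under siEGFR DUSP6 changed by -1.07 over the 4 lines and by -0.22 (adjusted p = 0.69) in HaCaT-HRAS. EGR1, also read as an ERK output, did not follow DUSP6 throughout. By limma it changed under siEGFR by -0.54 in HaCaT-HRAS (adjusted p = 0.03) and by -0.36 in HaCaT-EGFR (adjusted p = 0.17). Against HaCaT-Mock, EGR1 in HaCaT-HRAS read 0.49 under PBS (adjusted p = 0.031) and 0.31 under scramble siRNA (adjusted p = 0.22). Under the inhibitors it changed by -2.45 over the 4 lines and by -0.95 in HaCaT-HRAS. The 7 keratinocyte markers had medians from 8.55 (ITGB4) to 13.31 (SFN), and the 6 fibroblast markers medians from 3.78 (LUM) to 7.25 (COL1A1), COL1A1 being the one above the median level of all genes. Results that rest on 3 arrays, called the arrays in doubt below, are also given without them. HaCaT-HRAS gefitinib replicate 1 had a GAPDH 3′ minus 5′ signal of 0.874, a sign of degraded RNA, against -0.197 to 0.164 on the other construct arrays, HaCaT-HRAS gefitinib replicate 2 was doubted in earlier work on these data although its value of 0.0915 lay within that range, and HaCaT-PIK3CA afatinib replicate 1 had a DUSP6 signal of 9.57, where the other inhibitor arrays of that line lay between 6.76 and 8.16. DUSP6 is itself lowered by the inhibitors, so HaCaT-PIK3CA afatinib replicate 1 was picked by its response. Values without that array are thus tilted towards a larger response. The arrays fell into batches J (53 arrays), E (16), M (26) and P (1 FaDu array). J, E and M each held several groups, although HaCaT-EGFR under PBS was in J alone and the scramble siRNA with inhibitor groups of the 3 lines other than HaCaT-Mock were in E alone, and a batch term stood in every fit. It was largest for PKM (1.75 higher in batch M than in J), against a median absolute term of 0.118 over all genes.

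The core letters that HIF1A is known to bind are ACGTG and GCGTG, and both were searched on both strands of the 250 bases before each gene's start (RefSeq, build GRCh38.p14). They were found in 21 of the 32 listed genes with a promoter entry, that is 65.6%, and in 11763 of 27305 annotated genes, that is 43.1%. The promoters of the genes with the largest responses to the inhibitors below are shown, each 5′ to 3′ on the gene's own strand and ending at the base before the start, with matches in capitals (a match on the other strand reads CACGT or CACGC, and neighbouring matches can overlap). They are those of BNIP3 at chr10:131981924-131982173 (minus strand), HK2 at chr2:74833877-74834126 (plus strand), PDK1 at chr2:172555123-172555372 (plus strand) and ADM at chr11:10304823-10305072 (plus strand).
BNIP3: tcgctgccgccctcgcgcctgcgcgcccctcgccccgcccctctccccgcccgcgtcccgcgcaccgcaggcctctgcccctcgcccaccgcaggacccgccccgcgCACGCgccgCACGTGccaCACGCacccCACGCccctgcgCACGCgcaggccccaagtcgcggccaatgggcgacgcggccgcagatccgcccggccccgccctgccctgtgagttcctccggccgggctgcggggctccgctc
HK2: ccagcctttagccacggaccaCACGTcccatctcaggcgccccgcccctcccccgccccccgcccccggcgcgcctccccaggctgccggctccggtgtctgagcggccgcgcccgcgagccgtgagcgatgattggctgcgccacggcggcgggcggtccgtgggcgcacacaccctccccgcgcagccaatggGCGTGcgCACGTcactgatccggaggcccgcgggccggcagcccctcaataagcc
PDK1: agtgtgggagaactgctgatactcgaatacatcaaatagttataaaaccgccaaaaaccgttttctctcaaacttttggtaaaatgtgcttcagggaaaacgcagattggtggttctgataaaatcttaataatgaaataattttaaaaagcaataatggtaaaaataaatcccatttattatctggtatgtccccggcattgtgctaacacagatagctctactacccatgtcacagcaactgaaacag
ADM: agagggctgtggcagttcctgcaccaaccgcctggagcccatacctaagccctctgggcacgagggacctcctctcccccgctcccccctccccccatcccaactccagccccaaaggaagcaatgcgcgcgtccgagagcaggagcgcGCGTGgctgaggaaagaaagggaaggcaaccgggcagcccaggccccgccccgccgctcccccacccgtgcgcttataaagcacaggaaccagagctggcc
BNIP3 held 6 matches, HK2 held 3, ADM held 1 and PDK1 held 0 in this window. The letters alone are no evidence of binding, and a window without them says nothing of HIF1A at the gene. VEGFA, NDRG1, BNIP3L and SLC2A3 had no entry.

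The first comparison asked how blocking EGFR changed these genes. Under the inhibitors, averaged over the 3 agents and the 4 lines, most of them fell: 21 of 34 were lower and 7 higher at an adjusted p under 0.05, while 19.8% of all genes tested were called higher and 19.4% lower. Their median log2 change was -0.21, against -0.00539 for all genes. BNIP3, a mitophagy receptor, fell 2.07-fold and HK2, the hexokinase that commits glucose to glycolysis in growing cells, fell 1.79-fold, while the vasodilator peptide ADM rose 1.6-fold. In these bulk samples, fewer cells of a state and less RNA per cell cannot be told apart. Within batch J alone, the same changes were -1.07 for BNIP3, -0.82 for HK2 and 0.65 for ADM on the log2 scale, and all 28 called genes had the same sign. Without the arrays in doubt 28 genes were called, 27 of them among those above, and ANKRD37 was lost (adjusted p = 0.074). Of 7 keratinocyte markers 6 were higher under the inhibitors and of 17 markers of fibroblasts, endothelium, leukocytes and melanocytes 5 were higher and 2 lower; their part in the result was not tested.

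**Figure D1:**
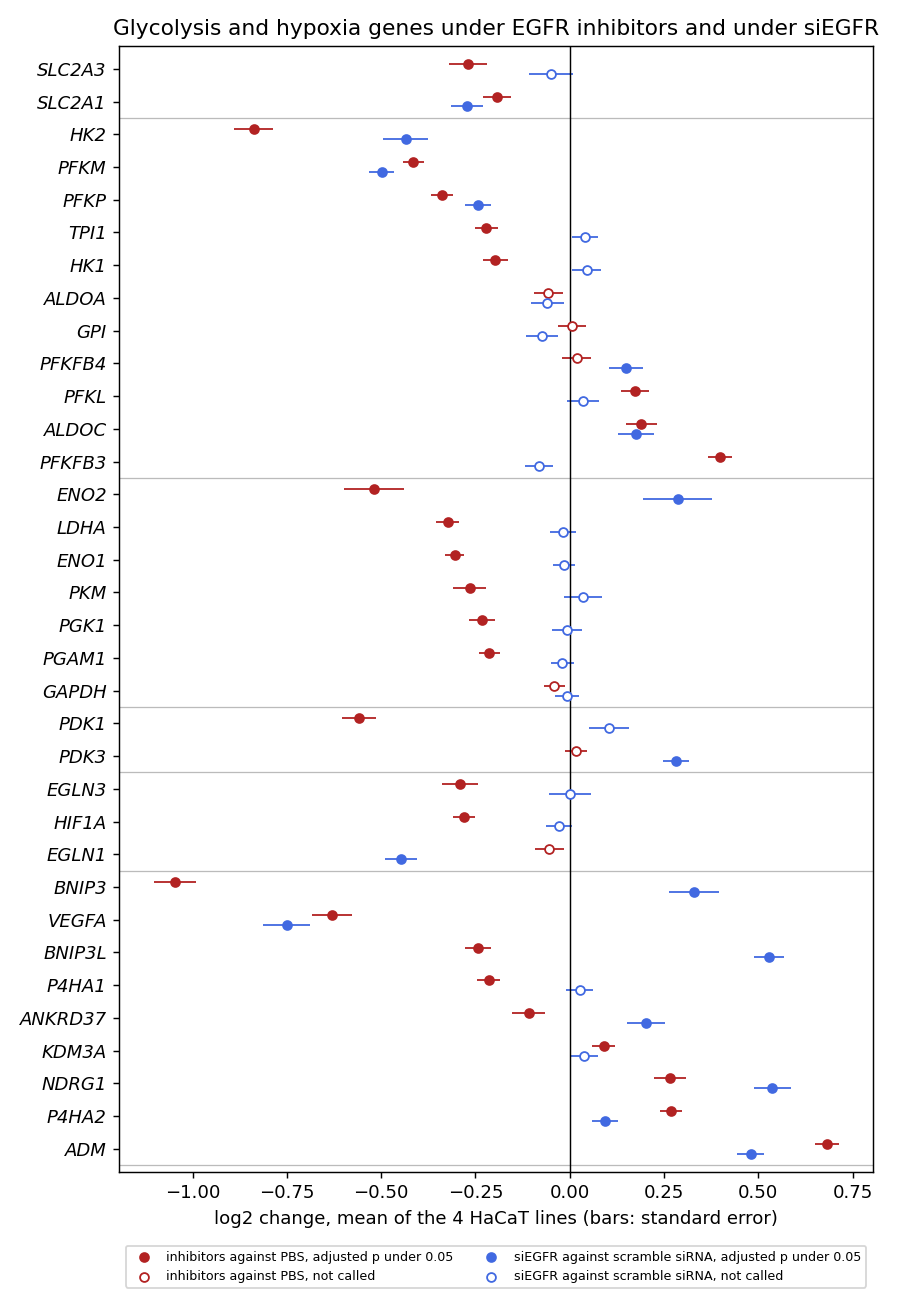
Log2 change of each of the 34 genes, averaged over the 4 HaCaT lines, under the EGFR inhibitors against PBS and under siEGFR against scramble siRNA (x axis), with standard errors as bars; filled points passed an adjusted p of 0.05 and open points did not. BNIP3 lies at -1.05 under the inhibitors and at 0.33 under siEGFR, while VEGFA lies at -0.63 and -0.75.

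BNIP3 was the gene with the largest fall. In HaCaT-Mock, BNIP3 read 9.40, 9.44 and 9.20 on the PBS arrays and 7.46 to 8.26 (median 7.98) on the inhibitor arrays (n = 9). In HaCaT-EGFR, BNIP3 read 9.80 and 9.68 on the PBS arrays and 7.87 to 8.51 (median 8.14) on the inhibitor arrays (n = 9). In both lines the inhibitor arrays were all below the PBS arrays. In HaCaT-PIK3CA, BNIP3 read 9.17, 9.12 and 8.76 on the PBS arrays and 7.49 to 9.13 (median 7.89) on the inhibitor arrays (n = 8). 7 of those 8 arrays lay below all PBS arrays, and the exception at 9.13 was the array in doubt. In HaCaT-HRAS, BNIP3 read 8.96, 8.95 and 8.65 on the PBS arrays and 8.27 to 8.83 (median 8.46) on the inhibitor arrays (n = 9). There the ranges overlapped, with 7 of 9 inhibitor arrays below all PBS arrays. The fitted log2 change over the 4 lines was -1.05 ± 0.0566 (SE), adjusted p = 3.7e-22. BNIP3L, a related mitophagy receptor, fell less (-0.24 ± 0.0336 (SE), adjusted p = 1.5e-08).

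HK2 moved in the same way. In HaCaT-Mock, HK2 read 9.29, 9.28 and 9.62 on the PBS arrays and 7.49 to 8.32 (median 7.98) on the inhibitor arrays. In HaCaT-EGFR, HK2 read 9.08 and 8.95 on the PBS arrays and 7.60 to 8.28 (median 8.09) on the inhibitor arrays. In these lines no inhibitor array reached the level of a PBS array. In HaCaT-PIK3CA, HK2 read 9.30, 9.21 and 8.84 on the PBS arrays and 7.86 to 9.41 (median 8.25) on the inhibitor arrays. Here 7 of 8 inhibitor arrays were below all PBS arrays, and the array in doubt was above them. In HaCaT-HRAS, HK2 read 9.59, 9.63 and 9.37 on the PBS arrays and 9.01 to 9.39 (median 9.23) on the inhibitor arrays. There 1 of 9 inhibitor arrays lay above the lowest PBS array. The log2 change over the 4 lines was -0.84 ± 0.0516 (SE), adjusted p = 5e-20. The other 2 probe sets of HK2, both dimmer, gave -0.10 and -0.09 and were not called. HK1, the hexokinase found in most tissues, changed by -0.20 ± 0.033 on the log2 scale.

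VEGFA, the main growth factor for blood vessels, was lower in HaCaT-Mock, HaCaT-EGFR and HaCaT-PIK3CA and not called in HaCaT-HRAS. In HaCaT-Mock, VEGFA read 10.24, 10.17 and 9.45 on the PBS arrays and 8.28 to 9.58 (median 9.25) on the inhibitor arrays. The HaCaT-Mock PBS array at 9.45 was run in batch E, whose batch term for VEGFA was -0.75 against batch J. In HaCaT-EGFR, VEGFA read 10.40 and 10.41 on the PBS arrays and 9.20 to 9.64 (median 9.46) on the inhibitor arrays. In HaCaT-PIK3CA, VEGFA read 10.27, 10.42 and 10.19 on the PBS arrays and 9.32 to 9.74 (median 9.56) on the inhibitor arrays. In HaCaT-EGFR and HaCaT-PIK3CA no array of one set reached the other, and in HaCaT-Mock the sets overlapped. In HaCaT-HRAS, VEGFA read 10.82, 10.91 and 10.68 on the PBS arrays and 10.69 to 10.90 (median 10.79) on the inhibitor arrays. The sets there covered the same range. The log2 change over the 4 lines was -0.63 ± 0.0535 (SE), adjusted p = 6.8e-15.

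PDK1 phosphorylates pyruvate dehydrogenase and so keeps pyruvate out of the mitochondrial citrate cycle. In HaCaT-Mock, PDK1 read 8.23, 8.21 and 7.96 on the PBS arrays and 6.74 to 7.77 (median 7.26) on the inhibitor arrays. In HaCaT-EGFR, PDK1 read 8.14 and 8.20 on the PBS arrays and 6.54 to 7.55 (median 7.16) on the inhibitor arrays. All inhibitor arrays of both lines were below all PBS arrays. In HaCaT-PIK3CA, PDK1 read 7.92, 8.18 and 7.54 on the PBS arrays and 6.89 to 7.84 (median 7.32) on the inhibitor arrays. In HaCaT-HRAS, PDK1 read 8.03, 8.18 and 7.59 on the PBS arrays and 7.60 to 8.09 (median 7.86) on the inhibitor arrays. In HaCaT-HRAS no inhibitor array lay outside the PBS range, and in HaCaT-PIK3CA 5 of 8 were below it. The log2 change over the 4 lines was -0.56 ± 0.0449 (SE), adjusted p = 1e-15. ENO2, the enolase typical of neurons that also answers to low oxygen, was dim in these cells, at 5.23 to 5.85 (median 5.58) under PBS and 4.45 to 5.35 (median 4.88) under the inhibitors in HaCaT-Mock, where the ranges overlapped. In HaCaT-EGFR it read 5.73 and 5.68 under PBS and 4.56 to 5.28 (median 4.98) under the inhibitors, without overlap. It read 5.33, 5.08 and 5.51 against 4.53 to 5.84 (median 5.09) in HaCaT-PIK3CA and 6.27, 6.24 and 6.40 against 5.81 to 6.70 (median 5.95) in HaCaT-HRAS, and the sets overlapped in both. Its log2 change over the 4 lines was -0.52 ± 0.0795 (SE), adjusted p = 1.9e-07.

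ADM, PFKFB3 and NDRG1 went the other way, although all are known to be induced by low oxygen. In HaCaT-Mock, ADM read 8.73, 8.78 and 9.00 on the PBS arrays and 8.97 to 10.05 (median 9.56) on the inhibitor arrays. In HaCaT-EGFR, ADM read 8.98 and 8.99 on the PBS arrays and 9.47 to 10.55 (median 10.31) on the inhibitor arrays. In HaCaT-EGFR all inhibitor arrays were above both PBS arrays, and in HaCaT-Mock 8 of 9 were above all PBS arrays. In HaCaT-PIK3CA, ADM read 8.51, 8.59 and 8.45 on the PBS arrays and 8.78 to 9.13 (median 8.98) on the inhibitor arrays. In HaCaT-HRAS, ADM read 8.53, 8.47 and 8.28 on the PBS arrays and 8.56 to 9.13 (median 8.83) on the inhibitor arrays. In HaCaT-PIK3CA and HaCaT-HRAS the sets did not overlap. Over the 4 lines ADM rose by 0.68 ± 0.0312 (SE) on the log2 scale (adjusted p = 7.2e-25). PFKFB3, which makes the small molecule that switches phosphofructokinase on, rose by 0.40 ± 0.0325 (SE), adjusted p = 1.8e-15, and the stress gene NDRG1 by 0.27 ± 0.0425 (SE), adjusted p = 4.4e-07. P4HA2, a collagen prolyl hydroxylase, rose by 0.27, the aldolase ALDOC by 0.19, the liver-type phosphofructokinase PFKL by 0.17 and the histone demethylase KDM3A by 0.09. KDM3A lost its call without a batch term, in batch J alone and when 1 of the 46 arrays was left out.

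**Figure D2:**
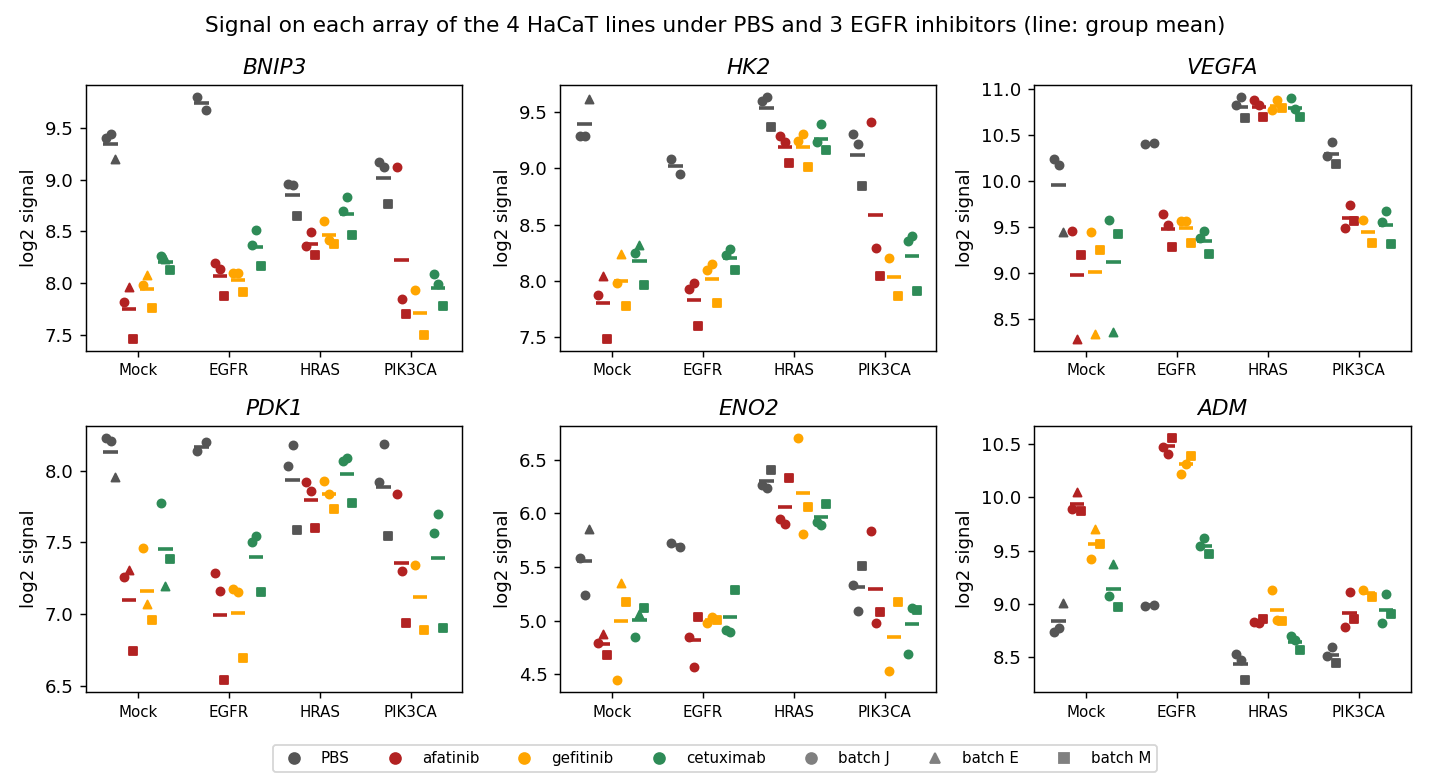
Log2 signal (y axis) on each array of the 4 HaCaT lines under PBS and under each of the 3 inhibitors for the genes with the largest responses, marker shape showing the batch and lines the group means. BNIP3 and HK2 sit lower under the inhibitors in HaCaT-Mock, HaCaT-EGFR and HaCaT-PIK3CA with the exception of 1 HaCaT-PIK3CA afatinib array, and the shift is small in HaCaT-HRAS (-0.35 and -0.32 on the log2 scale).

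The other genes of the pathway changed less. Of 8 genes often used as steady references 2 were higher and 3 lower, from HPRT1 at -0.31 to B2M at 0.20. Of the 11 genes from hexokinase to the triose phosphates, 5 were lower and 3 higher, with the phosphofructokinases PFKM (-0.42) and PFKP (-0.34) among the lower ones and PFKL among the higher. Of the 7 genes from GAPDH to lactate, 6 were lower and 0 higher, LDHA, which makes lactate, by -0.32, the enolase ENO1 by -0.30, the kinase PGK1 by -0.23, the mutase PGAM1 by -0.21, with ENO2 as above and pyruvate kinase PKM at -0.27, which turned to 0.051 in the model without a batch term. GAPDH itself was not called (-0.04, adjusted p = 0.26). Both glucose transporters were lower, SLC2A3 by -0.27 and SLC2A1 by -0.19. HIF1A mRNA fell by 0.28 ± 0.0298 (SE), adjusted p = 1.2e-11, and the oxygen sensor EGLN3, itself a HIF1A target, changed by -0.29. TPI1, the isomerase of the triose phosphates, changed by -0.22, P4HA1 by -0.22 and ANKRD37 by -0.11, a call that was lost when any of 23 of the 46 arrays was left out. TPI1 and HK1 lost their calls without a batch term. Of the 34 genes 6 were not called: ALDOA (-0.06), GPI (0.01), EGLN1 (-0.05), GAPDH, PDK3 (0.02) and PFKFB4 (0.02). For PDK3 and EGLN1 other probe sets disagreed with the one used: 2 of PDK3 read -0.32 and -0.27 and 2 of EGLN1 read -0.18 and -0.28, all called lower.

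The next comparison asked whether the response depended on the construct. In HaCaT-Mock 20 of the 34 genes were lower and 5 higher under the inhibitors, where 14.5% of all genes tested were called higher and 14.2% lower. In HaCaT-EGFR 18 were lower and 4 higher, where 13.6% of all genes tested were called higher and 12.8% lower, and in HaCaT-PIK3CA 17 were lower and 5 higher, where 10.2% of all genes tested were called higher and 10.1% lower. In HaCaT-HRAS 3 were lower and 1 higher, where 3.81% of all genes tested were called higher and 2.2% lower. Those 4 genes were ADM (0.37 ± 0.0588 SE, adjusted p = 3e-05), PFKM (-0.23 ± 0.0527, adjusted p = 0.0035), BNIP3 (-0.35 ± 0.107, adjusted p = 0.035) and HK2 (-0.32 ± 0.0973, adjusted p = 0.036). This last count was unstable. It was 6 without the arrays in doubt, where 8.38% of all genes were called, 14 when arrays were weighted by their quality, where 17% were, and between 1 and 7 when single HaCaT-HRAS arrays were left out, with 1 called without PBS replicate 3, 2 without PBS replicate 1 or 2 or cetuximab replicate 1, and 7 without gefitinib replicate 3. BNIP3 and HK2 read -0.33 ± 0.0553 and -0.32 ± 0.0536 in HaCaT-HRAS without the arrays in doubt. The difference of the responses was tested directly, as the response of HaCaT-HRAS minus that of HaCaT-Mock, and 13 of 34 genes were called, 9 with a positive and 4 with a negative difference, where 4.83% of all genes tested were called higher and 4.7% lower.

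Among these 13 genes, those that fell in HaCaT-Mock had a positive difference and those that rose had a negative one. HK2 changed by -1.31 in HaCaT-Mock and by -0.32 in HaCaT-HRAS, a difference of 0.99 ± 0.138 (SE), adjusted p = 7.2e-07. BNIP3 changed by -1.29 and -0.35 (difference 0.94 ± 0.152 (SE), adjusted p = 1.1e-05). VEGFA changed by -0.85 and -0.00 (difference 0.85 ± 0.143 (SE), adjusted p = 2.8e-05). PFKFB3 read 9.05, 9.09 and 9.44 under PBS and 9.23 to 9.96 (median 9.61) under the inhibitors in HaCaT-Mock, and 8.67, 8.75 and 8.30 against 8.10 to 8.88 (median 8.48) in HaCaT-HRAS. The difference of its responses was -0.72 ± 0.0871 (SE), adjusted p = 2.5e-08, so that the rise seen in HaCaT-Mock (0.56) was not matched in HaCaT-HRAS (-0.16, adjusted p = 0.12). PDK1, PFKP, ENO1, PKM, ANKRD37 and PFKM also had positive differences, from 0.26 to 0.67, and NDRG1, ADM and P4HA2 negative ones, from -0.52 to -0.30. For PKM the sign of the difference turned in the model without a batch term. In batch J alone the differences were 0.92 for HK2, 1.01 for BNIP3, 0.68 for VEGFA and -0.71 for PFKFB3, and without the arrays in doubt they were 1.00 ± 0.0728, 0.98 ± 0.0752, 0.88 ± 0.148 and -0.72 ± 0.0728. The response of HaCaT-PIK3CA minus that of HaCaT-Mock called 0 of 34 genes by limma (7 had an unadjusted p under 0.05), where 0.0253% of all genes tested were called higher and 0.116% lower. That count was 1 without HaCaT-PIK3CA afatinib replicate 1 or 3 and 2 without afatinib replicate 2. The response of HaCaT-EGFR minus that of HaCaT-Mock called 1, ADM (0.42 ± 0.0907 (SE), adjusted p = 0.046), where 0.0253% of all genes tested were called higher and 0.0455% lower, and that call was lost when any of 17 of the 23 arrays was left out, and held without HaCaT-EGFR afatinib replicate 2, gefitinib replicate 1 or cetuximab replicate 3 and without HaCaT-Mock afatinib replicate 3, gefitinib replicate 3 or cetuximab replicate 2. A gene called in one line and not in another is not shown to differ unless named here.

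**Figure D3:**
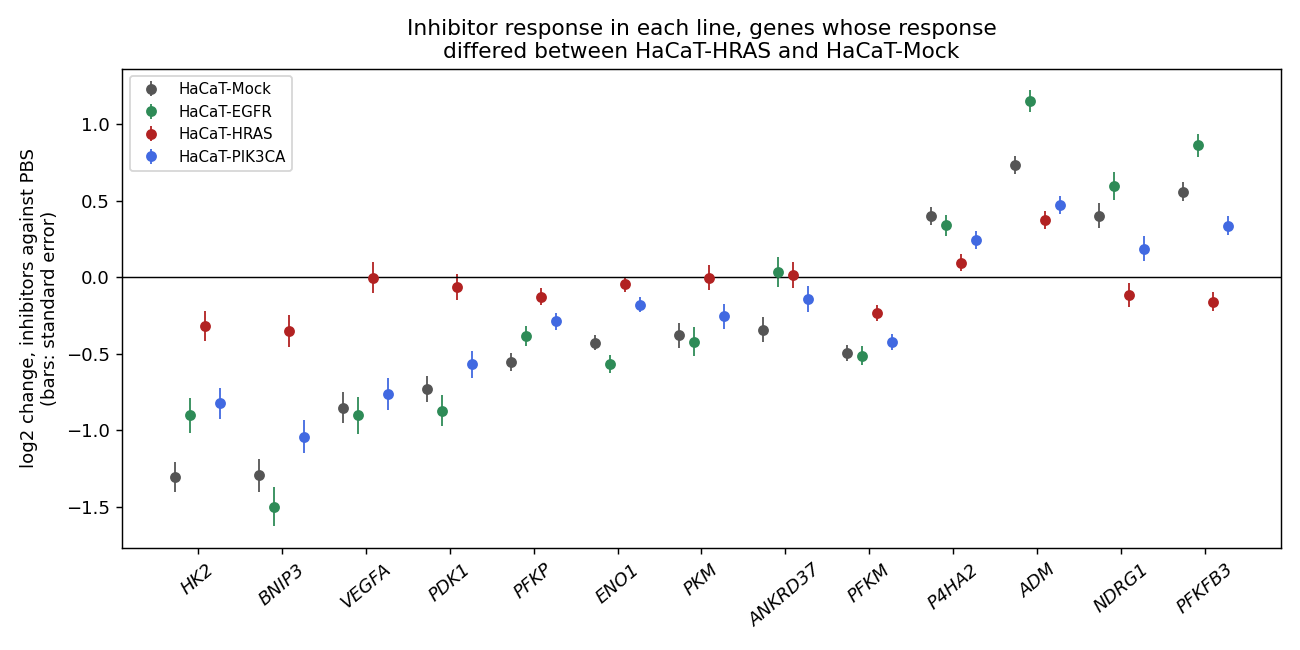
Log2 change under the inhibitors against PBS (y axis, bars are standard errors) in each of the 4 lines for the genes whose response differed between HaCaT-HRAS and HaCaT-Mock. HaCaT-HRAS lies nearer 0 than HaCaT-Mock for HK2 (-0.32 against -1.31), BNIP3 (-0.35 against -1.29) and VEGFA (-0.00 against -0.85).

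The 3 agents were used at different doses and are set side by side without a test between them. Afatinib at 10 nM lowered 21 genes and raised 6, where 19% of all genes tested were called higher and 18.1% lower. Gefitinib at 100 nM lowered 21 and raised 6, where 19.2% of all genes tested were called higher and 18.2% lower, and cetuximab at 100 nM lowered 20 and raised 5, where 14.2% of all genes tested were called higher and 14.6% lower. Afatinib and gefitinib enter the cell and block the kinase, and cetuximab binds the receptor from outside. For afatinib, gefitinib and cetuximab in that order, the log2 change of BNIP3 was -1.09, -1.15 and -0.90, that of HK2 -0.87, -0.90 and -0.75, and that of VEGFA -0.62, -0.63 and -0.64. ADM changed by 0.86, 0.80 and 0.38, and PDK1 by -0.64, -0.65 and -0.39. NDRG1 changed by 0.40 and 0.39 under the kinase inhibitors and by 0.01 (adjusted p = 0.96) under cetuximab, and SLC2A1 by -0.15, -0.14 and -0.28. ENO2 read -0.52, -0.51 and -0.52. HK2 changed under afatinib by -1.50 in HaCaT-Mock and -0.34 in HaCaT-HRAS, and under cetuximab by -1.12 and -0.27. In HaCaT-PIK3CA it changed by -0.54 under afatinib with the array in doubt and by -0.91 ± 0.0678 (SE) without the arrays in doubt, beside -0.90 under cetuximab. ADM in HaCaT-EGFR changed by 1.52 under afatinib, 1.35 under gefitinib and 0.58 under cetuximab.

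A separate set of arrays held the inhibitors in cells that carried the scramble siRNA, in groups that share no array with the groups above. The fit was that of all construct arrays, so its batch term and variance rest on the arrays above as well. In the 3 lines other than HaCaT-Mock the inhibitor groups were in batch E alone and the PBS groups in J and E. Over the 4 lines 13 of 34 genes were lower and 5 higher, where 10.3% of all genes tested were called higher and 9.05% lower. HK2 changed by -0.79 ± 0.0764 (SE), VEGFA by -0.79 ± 0.0792, BNIP3 by -0.74 ± 0.0838 and ADM by 0.44 ± 0.0462 on the log2 scale. HK2 read 8.42 with PBS and 7.91, 8.19 and 8.30 with afatinib, gefitinib and cetuximab in HaCaT-Mock, and 9.40 and 9.44 against 8.03, 8.16 and 8.53 in HaCaT-EGFR. In HaCaT-HRAS it read 9.92 and 10.02 with PBS and 9.50, 9.48 and 9.69 with the inhibitors, and in HaCaT-PIK3CA 9.41 and 9.52 and 8.51, 8.34 and 8.45. Every inhibitor array lay below the PBS arrays of its line. BNIP3 read 7.98 with PBS in HaCaT-Mock and 7.61, 8.03 and 8.19 with the inhibitors, VEGFA 9.82 and 8.33, 8.49 and 8.51, and ADM 9.13 and 9.87, 9.62 and 9.34. VEGFA and ADM separated there and BNIP3 did not. BNIP3 read 9.83 and 9.74 with PBS and 7.96 to 8.40 (median 8.00) with an inhibitor in HaCaT-EGFR, 8.79 and 8.96 and 8.42 to 8.66 (median 8.52) in HaCaT-HRAS, and 9.10 and 9.14 and 8.12 to 8.24 (median 8.22) in HaCaT-PIK3CA. In each of these lines every inhibitor array lay below both PBS arrays. ENO2 (-0.42), PDK1 (-0.41) and PFKFB3 (0.27) were also called there. The scramble siRNA with inhibitor groups have 1 array each, and the test assumes that they vary as the other groups do. The HaCaT-Mock array with scramble siRNA and PBS stood apart: its DUSP6 signal was 8.13, against 10.18, 10.16 and 9.49 on the PBS arrays of that line and 10.07, 9.94 and 9.82 on its scramble siRNA arrays. Averaged over the other 3 lines, 19 genes were lower and 4 higher, where 12.4% of all genes tested were called higher and 12.9% lower, with BNIP3 at -0.98, adjusted p = 6.7e-12, HK2 at -0.96, adjusted p = 8.2e-13, VEGFA at -0.59, adjusted p = 4.6e-07 and ADM at 0.43, adjusted p = 3e-09, and NDRG1 and PDK3 lost their calls; this alternative was chosen after seeing the data. Fitted on these groups alone, 9 genes were called, where 8.25% of all genes were.

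The siRNA against EGFR gave another pattern than the inhibitors. The study's methods name 1 such siRNA, and effects of it other than through EGFR were not tested. Against scramble siRNA, over the 4 lines, 10 of 34 genes were higher and 6 lower, where 14.2% of all genes tested were called higher and 14.1% lower, and their median log2 change was 0.01, against -0.0193 for all genes. VEGFA fell by 0.75 ± 0.0618 (SE), adjusted p = 6.4e-15, PFKM by 0.50, EGLN1, the main oxygen sensor, by 0.45, HK2 by 0.44, SLC2A1 by 0.27 and PFKP by 0.24. NDRG1 rose by 0.54, BNIP3L by 0.53 ± 0.0388 (SE), adjusted p = 1.1e-16, ADM by 0.48 and BNIP3 by 0.33 ± 0.0654 (SE), adjusted p = 5.2e-05. The other probe set of BNIP3 read 0.16 and was not called (adjusted p = 0.11), and with the probe sets of the study's own rule BNIP3 lost its call. ENO2 (0.29), PDK3 (0.28), ANKRD37 (0.20), ALDOC (0.17), PFKFB4 (0.15) and P4HA2 (0.09) were higher as well, but ENO2, ALDOC, PFKFB4 and P4HA2 lost their calls both without a batch term and in batch J alone, and P4HA2 when any of 10 of the 24 arrays was left out. Of the 7 genes from GAPDH to lactate 1 was higher, ENO2 with that limit, and 0 lower. Of 7 keratinocyte markers 4 were higher and 1 lower, and 0 of 17 markers of other cell types were called; their part was not tested.

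VEGFA read 9.69, 9.61 and 9.46 under scramble siRNA and 8.81, 9.11 and 8.53 under siEGFR in HaCaT-Mock. It read 9.93, 9.90 and 9.72 under scramble siRNA and 8.94, 9.00 and 8.75 under siEGFR in HaCaT-EGFR. It read 10.05, 9.81 and 9.58 under scramble siRNA and 9.08, 9.03 and 8.64 under siEGFR in HaCaT-PIK3CA, and 10.61, 10.59 and 10.37 under scramble siRNA and 10.19, 10.19 and 10.04 under siEGFR in HaCaT-HRAS. VEGFA was lower on every siEGFR array than on every scramble siRNA array of its line. BNIP3L read 9.16, 9.02 and 8.87 under scramble siRNA and 9.76, 9.85 and 9.36 under siEGFR in HaCaT-Mock and 9.55, 9.55 and 9.31 under scramble siRNA and 9.96, 9.97 and 9.78 under siEGFR in HaCaT-EGFR. In HaCaT-HRAS BNIP3L read 9.45, 9.36 and 9.20 under scramble siRNA and 10.01, 9.85 and 9.76 under siEGFR, and in HaCaT-PIK3CA 9.37, 9.13 and 8.95 under scramble siRNA and 9.76, 9.76 and 9.44 under siEGFR. BNIP3L was higher on every siEGFR array than on every scramble siRNA array of its line. NDRG1 read 8.82, 8.75 and 8.78 under scramble siRNA and 9.26, 8.98 and 9.51 under siEGFR in HaCaT-Mock, and PFKM, the muscle-type phosphofructokinase, 9.88, 10.00 and 10.03 under scramble siRNA and 9.41, 9.31 and 9.51 under siEGFR. In HaCaT-HRAS, NDRG1 read 8.80, 8.89 and 8.93 under scramble siRNA and 9.31, 9.24 and 9.41 under siEGFR and PFKM 10.13, 10.13 and 10.16 under scramble siRNA and 9.69, 9.74 and 9.66 under siEGFR. Both genes separated without overlap in these lines. NDRG1 in HaCaT-EGFR read 9.38, 9.36 and 9.67 under scramble siRNA and 10.03, 9.96 and 10.29 under siEGFR, and in HaCaT-PIK3CA 8.43, 8.67 and 8.78 under scramble siRNA and 9.18, 9.16 and 9.38 under siEGFR. PFKM in HaCaT-EGFR read 9.96, 9.90 and 9.99 under scramble siRNA and 9.45, 9.49 and 9.54 under siEGFR, and in HaCaT-PIK3CA 9.97, 10.11 and 10.08 under scramble siRNA and 9.52, 9.52 and 9.52 under siEGFR. No siEGFR array reached a scramble siRNA array for either gene. ADM read 9.01, 8.93 and 8.86 under scramble siRNA and 9.49, 9.50 and 9.42 under siEGFR in HaCaT-Mock, and 9.08, 9.10 and 9.03 under scramble siRNA and 9.59, 9.62 and 9.49 under siEGFR in HaCaT-EGFR. ADM read 8.82, 8.78 and 8.59 under scramble siRNA and 9.15, 9.03 and 9.07 under siEGFR in HaCaT-HRAS, and 8.87, 8.84 and 8.74 under scramble siRNA and 9.36, 9.41 and 9.26 under siEGFR in HaCaT-PIK3CA. ADM was higher on every siEGFR array than on every scramble siRNA array of its line. EGLN1 changed by -0.51 in HaCaT-EGFR, by -0.46 in HaCaT-HRAS, and by -0.41 in HaCaT-Mock as well as in HaCaT-PIK3CA, and 2 of its other 3 probe sets, at -0.57 and -0.38 over the lines, were called as well.

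In HaCaT-Mock 6 genes were higher and 6 lower under siEGFR, where 5.45% of all genes tested were called higher and 5.36% lower. In HaCaT-EGFR 4 were higher and 5 lower, where 4.75% of all genes tested were called higher and 4.71% lower, in HaCaT-HRAS 4 and 4, where 3.6% of all genes tested were called higher and 2.69% lower, and in HaCaT-PIK3CA 4 and 6, where 6.02% of all genes tested were called higher and 5.61% lower. Called in each of the 4 lines were VEGFA, EGLN1 and PFKM as lower and NDRG1, BNIP3L, ADM and PDK3 as higher. HK2 was called lower in HaCaT-Mock (-0.52), HaCaT-EGFR (-0.44) and HaCaT-PIK3CA (-0.51), and read -0.27 (adjusted p = 0.22) in HaCaT-HRAS, a difference between lines that was not tested. The response to siEGFR minus the response to the inhibitors, which rest on different arrays, called 23 of 34 genes, 19 positive and 4 negative, where 13% of all genes tested were called higher and 13.8% lower. It was widest for BNIP3 (1.38 ± 0.0865 (SE), adjusted p = 6.8e-19), followed by ENO2 (0.80), BNIP3L (0.77) and PDK1 (0.66), each of which was lower under the inhibitors and higher or not called under siEGFR. BNIP3 under siEGFR read 8.93, 8.95 and 8.67 under scramble siRNA and 9.44, 9.24 and 9.12 under siEGFR in HaCaT-Mock and 9.67, 9.60 and 9.48 under scramble siRNA and 9.85, 9.83 and 9.66 under siEGFR in HaCaT-EGFR. PDK1 read 7.89, 7.74 and 7.21 under scramble siRNA and 7.98, 8.06 and 7.42 under siEGFR and 7.89, 7.96 and 7.37 under scramble siRNA and 7.94, 7.97 and 7.35 under siEGFR in the same lines, and ENO2 5.32, 5.24 and 5.47 under scramble siRNA and 5.32, 5.16 and 5.92 under siEGFR and 5.45, 5.32 and 6.15 under scramble siRNA and 5.96, 5.96 and 6.22 under siEGFR. BNIP3 separated in HaCaT-Mock, while in HaCaT-EGFR its sets touched, and the sets of PDK1 and ENO2 overlapped in both lines. BNIP3L under the inhibitors read 9.78, 9.67 and 9.41 with PBS and 9.22 to 9.56 (median 9.42) with the inhibitors in HaCaT-Mock. PFKFB3 (-0.48) and EGLN1 (-0.39) had negative differences. VEGFA (-0.12 ± 0.0817 SE, adjusted p = 0.32) and PFKM (-0.08 ± 0.0427 SE, adjusted p = 0.16) had differences that did not pass the test.

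Transfection itself moved some of these genes. Scramble siRNA with PBS against PBS alone gave 4 lower and 2 higher genes of 34, where 2.16% of all genes tested were called higher and 3.76% lower. BNIP3 changed by -0.35, adjusted p = 0.0052, SLC2A3 by -0.31, BNIP3L by -0.26 and PDK1 by -0.25, with PFKFB3 (0.23) and KDM3A (0.17) higher. In HaCaT-EGFR, BNIP3 read 9.80 and 9.68 under PBS and 9.83 and 9.74 with the scramble siRNA, SLC2A3 5.84 and 5.92 and 5.39 and 5.89, BNIP3L 9.91 and 9.96 and 9.70 and 9.58, and PDK1 8.14 and 8.20 and 8.06 and 7.70. There BNIP3L and PDK1 were lower on both scramble siRNA arrays, and BNIP3 and SLC2A3 overlapped. BNIP3 read 8.96, 8.95 and 8.65 under PBS and 8.79 and 8.96 with the scramble siRNA in HaCaT-HRAS, 9.17, 9.12 and 8.76 and 9.10 and 9.14 in HaCaT-PIK3CA, and 9.40, 9.44 and 9.20 and 7.98 in HaCaT-Mock. The fall of BNIP3 therefore rested on the HaCaT-Mock array. Averaged over the other 3 lines, an alternative chosen after seeing the data, BNIP3 read -0.01, adjusted p = 0.99, SLC2A3 -0.25, adjusted p = 0.073 and PDK1 -0.13, adjusted p = 0.37, while BNIP3L (-0.30, adjusted p = 0.00028) was the 1 gene called lower beside 3 higher, where 2.31% of all genes tested were called higher and 3.78% lower. The siEGFR comparisons have the scramble siRNA as their control.

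The constructs were compared with HaCaT-Mock under PBS and again under scramble siRNA, which are separate arrays. HaCaT-HRAS had 8 genes higher and 8 lower than HaCaT-Mock under PBS, where 6.74% of all genes tested were called higher and 9.34% lower, and 9 higher and 5 lower under scramble siRNA, where 6.96% of all genes tested were called higher and 7.93% lower. ENO2, ALDOC, VEGFA, PFKFB4, SLC2A1 and BNIP3L were higher and PDK3, PFKFB3, EGLN3 and ADM lower in both. Some of these calls under PBS did not hold in other settings. ADM and EGLN3 lost theirs in batch J alone and with only the compared groups in the model. BNIP3L lost its call with only the compared groups and without a batch term. EGLN3 also lost its call when HaCaT-Mock PBS replicate 2 or 3 was left out. ALDOC, the aldolase of brain, read 7.79, 7.69 and 7.75 in HaCaT-Mock and 8.36, 8.48 and 8.83 in HaCaT-HRAS under PBS, a log2 difference of 0.71 ± 0.098 (SE), adjusted p = 1.1e-07. Under scramble siRNA it read 7.40, 7.33 and 7.73 and 8.16, 8.09 and 8.45. HaCaT-HRAS lay above HaCaT-Mock without overlap in both settings. VEGFA read 10.24, 10.17 and 9.45 and 10.82, 10.91 and 10.68 under PBS (0.67, adjusted p = 5.1e-05) and 9.69, 9.61 and 9.46 and 10.61, 10.59 and 10.37 under scramble siRNA (0.94). ENO2 read 5.58, 5.23 and 5.85 and 6.27, 6.24 and 6.40 under PBS (0.76, adjusted p = 0.0021) and 5.32, 5.24 and 5.47 and 5.98, 6.20 and 6.15 under scramble siRNA (0.76). PDK3, a pyruvate dehydrogenase kinase, read 7.98, 7.79 and 7.90 and 7.25, 7.39 and 7.01 under PBS (-0.60, adjusted p = 1.5e-09), and 7.71, 7.64 and 7.44 and 7.09, 7.23 and 6.56 under scramble siRNA (-0.64). PDK3 was lower in HaCaT-HRAS on all 5 of its probe sets, each called under PBS. Both glucose transporters were higher under PBS, SLC2A3 by 0.44 and SLC2A1 by 0.40. Both lost this call in batch J alone. SLC2A1 also lost it without a batch term and with only the compared groups in the model. SLC2A3 was dim, and its mean under scramble siRNA was 5.93 in HaCaT-Mock and 5.99 in HaCaT-HRAS. BNIP3 (-0.40), ANKRD37 (-0.37) and KDM3A (-0.34) were lower under PBS and not called under scramble siRNA, where BNIP3 read 0.09 (adjusted p = 0.75). The count under PBS was 8 from batch J arrays alone, where 8.03% of all genes were called, and 25 with array weights, where 26.1% were.

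HaCaT-EGFR had 2 genes higher and 0 lower under PBS, where 0.349% of all genes tested were called higher and 0.349% lower, and 4 higher and 0 lower under scramble siRNA, where 1.81% of all genes tested were called higher and 0.571% lower. NDRG1 read 9.20, 9.23 and 9.00 in HaCaT-Mock and 9.62 and 9.66 in HaCaT-EGFR under PBS (0.49 ± 0.111 (SE), adjusted p = 0.013), and ALDOC read 8.15 and 8.23 in HaCaT-EGFR (0.47 ± 0.109 (SE), adjusted p = 0.018). Under scramble siRNA, NDRG1 read 8.82, 8.75 and 8.78 and 9.38, 9.36 and 9.67 (0.68), ALDOC read 7.40, 7.33 and 7.73 and 7.83, 7.85 and 8.34 (0.52), BNIP3 8.93, 8.95 and 8.67 and 9.67, 9.60 and 9.48 (0.73), and BNIP3L 9.16, 9.02 and 8.87 and 9.55, 9.55 and 9.31 (0.45). Each of these sets separated without overlap. The count under PBS rests on 2 HaCaT-EGFR arrays: it was 0 without either of them or without HaCaT-Mock PBS replicate 3, 1 without HaCaT-Mock PBS replicate 2, 0 without a batch term, where 0.167% of all genes were called, and 8 with array weights, where 6.5% were. HaCaT-PIK3CA had 0 of 34 genes called by limma under PBS (6 with an unadjusted p under 0.05), where 0.0405% of all genes tested were called higher and 0.121% lower, and 0 under scramble siRNA (3 with an unadjusted p under 0.05), where 0.0202% of all genes tested were called higher and 0.0101% lower. Its changes under PBS lay between -0.28 and 0.24 on the log2 scale. Without the arrays in doubt 4 genes were called under PBS and 1 under scramble siRNA, where 1.09% and 0.248% of all genes were, and with array weights 6 and 1, where 2.28% and 0.425% were.

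The squamous carcinoma lines differed from HaCaT-Mock, and from each other, in most of these genes. SCC1 had 19 lower and 5 higher than HaCaT-Mock under PBS, where 19.9% of all genes tested were called higher and 17.5% lower, and SCC25 had 14 higher and 11 lower, where 19.5% of all genes tested were called higher and 22.7% lower. Between the carcinoma lines, 22 genes were lower and 5 higher in SCC1 than in SCC25, where 23.3% of all genes tested were called higher and 19.3% lower. Each line is 1 cell line with 2 arrays, from batches J and M, so these are differences between lines and not between tumours and normal cells. The 9 other hypoxia-induced genes split: 8 were higher and 1 lower in SCC25 than in HaCaT-Mock, and 2 were higher and 7 lower in SCC1. NDRG1 read 7.74 and 7.62 in SCC1, 12.43 and 12.51 in SCC25, 8.46 and 9.15 in FaDu without and with PBS, and 9.64 in parental HaCaT. It was 27.7-fold lower in SCC1 than in SCC25 (log2 difference -4.79 ± 0.121 (SE), adjusted p = 4.9e-39) and 9.43-fold higher in SCC25 than in HaCaT-Mock. ADM read 10.26 and 10.16 in SCC1, 11.08 and 10.95 in SCC25, 8.50 and 8.81 in FaDu without and with PBS, and 9.30 in parental HaCaT, and was higher than HaCaT-Mock in SCC1 by 1.46 and in SCC25 by 2.27 on the log2 scale. NDRG1 and ADM were highest in SCC25 among the carcinoma arrays. ALDOC read 5.13 and 5.53 in SCC1, 7.47 and 7.86 in SCC25, 8.64 and 8.90 in FaDu without and with PBS, and 8.27 in parental HaCaT and was 5.98-fold lower in SCC1 than in HaCaT-Mock (-2.58 ± 0.108 (SE), adjusted p = 1.5e-28). ENO2 read 7.01 and 7.45 in SCC1, 4.21 and 5.08 in SCC25, 5.03 and 6.85 in FaDu without and with PBS, and 5.39 in parental HaCaT, 1.63 in SCC1 and -0.95 in SCC25 against HaCaT-Mock. SLC2A1, the glucose transporter of most dividing cells, read 8.16 and 7.85 in SCC1, 9.89 and 9.72 in SCC25, 9.17 and 9.65 in FaDu without and with PBS, and 9.06 in parental HaCaT, and differed from HaCaT-Mock by 1.25 in SCC25 and by -0.55 in SCC1. SLC2A1 was lowest in SCC1 and highest in SCC25 among these arrays. PDK3 read 6.09 and 6.08 in SCC1, 6.72 and 6.75 in SCC25, 8.31 and 8.59 in FaDu without and with PBS, and 7.51 in parental HaCaT, with differences from HaCaT-Mock of -1.68 in SCC1 and -1.04 in SCC25, and PFKP, the platelet-type phosphofructokinase, read 9.95 and 9.99 in SCC1 and 9.09 and 9.21 in SCC25 (-1.35 against HaCaT-Mock in SCC25). Of the 7 keratinocyte markers 6 were lower in SCC1 than in HaCaT-Mock, and in SCC25 4 were higher and 1 lower; their part in these differences was not tested. Parental HaCaT has 1 array. The FaDu arrays differ in treatment and in batch, M without PBS and P with PBS. The FaDu array with PBS had a GAPDH 3′ minus 5′ signal of 0.379, against -0.0838 on the other. An effect of PBS in FaDu cannot be told apart from batch and RNA quality. Parental HaCaT and FaDu thus have no replicates and entered no comparison.

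**Figure D4:**
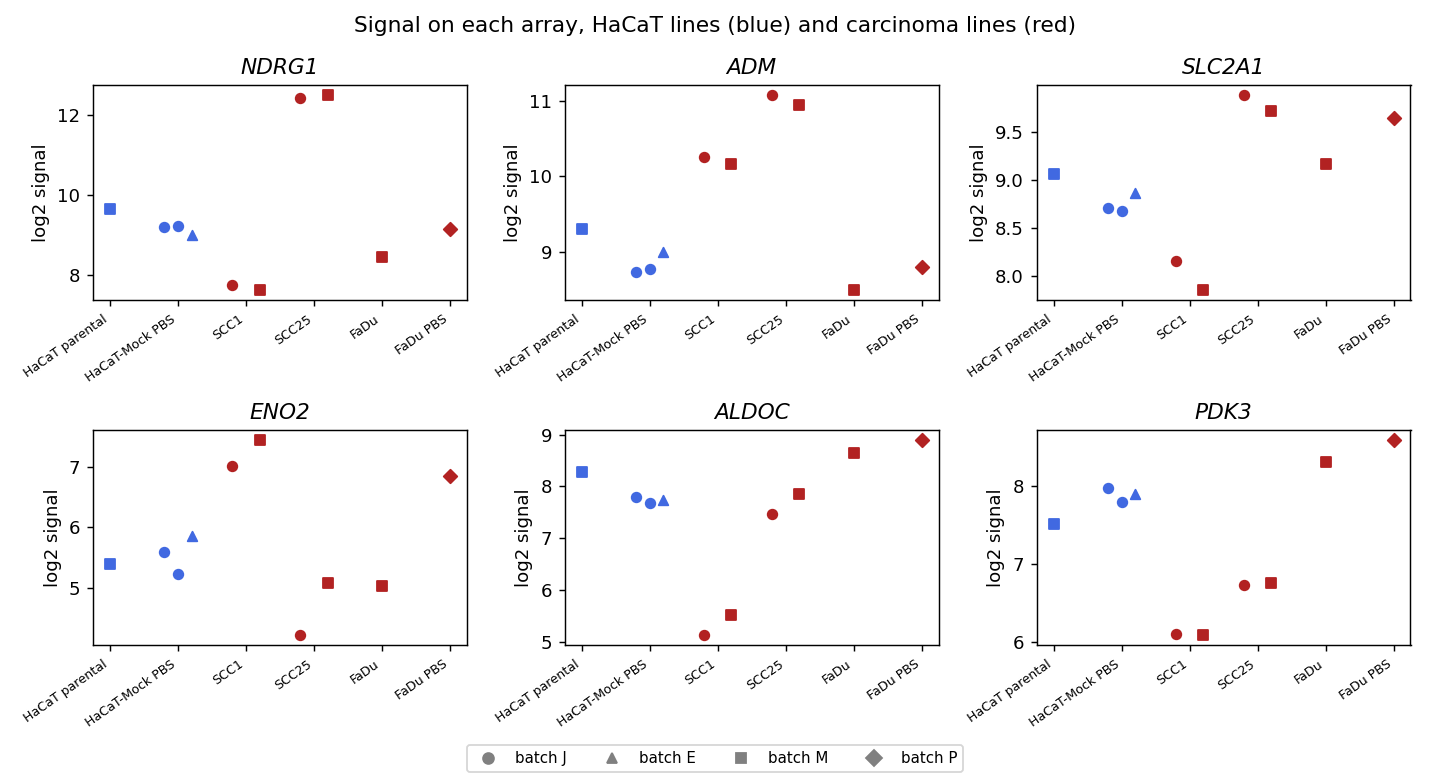
Log2 signal (y axis) of 6 genes on each array of parental HaCaT and of HaCaT-Mock under PBS (blue) and of the carcinoma lines (red), with marker shape showing the batch. NDRG1 lies at 12.43 and 12.51 in SCC25 and at 7.74 and 7.62 in SCC1, above and below the other lines, and ALDOC is lowest in SCC1 at 5.13 and 5.53.

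Other genes of the same pathways were read from fixed lists in the averaged inhibitor comparison, beside the 19.8% and 19.4% of all genes called higher and lower. Of 24 further hypoxia-induced genes 6 were higher and 9 lower, of 20 further glycolysis and sugar genes 4 and 6, of 9 regulators of HIF 1 and 3, of 6 pentose phosphate genes 4 and 2, of 24 genes of pyruvate entry and the citrate cycle 3 and 7, and of 11 regulators of glucose use 3 and 3. TXNIP, which restrains glucose uptake and is induced when sugar phosphates build up, rose by 1.45, adjusted p = 1.9e-21, and the related ARRDC4 by 0.31. SLC2A12, a further glucose transporter, rose by 1.37, adjusted p = 1.4e-23. MYC, a driver of glycolytic genes, changed by -0.48, adjusted p = 7.6e-08. EPAS1, which encodes HIF2A, changed by -0.35, adjusted p = 1.5e-09, and the VHL complex genes RBX1 and CUL2 by -0.15 and -0.15. Among the further hypoxia-induced genes, the creatine transporter SLC6A8 (-0.55), TMEM45A (-0.37) and FAM162A (-0.27) had the lowest adjusted p, while the largest change was that of BHLHE40 (0.67), named after its value was seen. LDHB changed by -0.22 and UGP2, which makes the sugar donor for glycogen, by 0.17. In the pentose phosphate pathway RPIA changed by -0.34, PGLS by 0.38 and TKT by 0.25, and in the citrate cycle IDH3A changed by -0.50, DLST by -0.26 and SUCLA2 by -0.18. In HaCaT-HRAS against HaCaT-Mock under PBS, EPAS1 was higher by 0.64, adjusted p = 2.8e-06 and SLC2A12 by 0.54. Under siEGFR, TXNIP rose by 0.28, adjusted p = 0.018, SLC2A12 by 0.62 and SLC6A8 changed by -0.68.

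The 16 groups of line and treatment with PBS or an inhibitor were averaged after removal of the batch term. Across these means the 34 genes formed 561 pairs, with a median Pearson r of 0.31. An r over 0.8 was seen for 79 pairs, and a negative r of over 0.5 in size for 124 pairs. The same count over all genes was not made. HK2 and HIF1A were most alike (r = 0.98), HK2 and PFKM had an r of 0.96, ENO2 and VEGFA 0.96, and ENO1 and ADM ran most opposite (r = -0.95). These values describe 16 means that share lines, batches and arrays, and have no test.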

How the data were processed

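Total RNA was hybridised to human U133 Plus 2.0 arrays and 96 arrays are used here. The values are log2 signals as deposited by the authors. The study's methods name fRMA 1.16.0 and pSVA batch correction, with outlier arrays removed and 3 technical batches, but whether the deposited values went through all of them was not given in the sources used. Arrays have no read depth, so precision rests on how many arrays a group has.

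Of 54675 probe sets, 41097 carried 1 gene symbol, 1801 several and 11777 none in the annotation table, and 1 probe set was kept per gene, that with the highest mean level on the 89 HaCaT construct arrays. Groups came from the labels. The labels do not say whether replicates are separate cultures, so p-values measure only the spread between arrays. lmFit and eBayes of limma 3.58.1 in R 4.3.3 were run on all 19775 genes with group means and a batch term (47 residual degrees of freedom), and the carcinoma comparisons came from a second fit on 95 arrays (49 residual degrees of freedom), the FaDu PBS array of batch P being left out. P-values were adjusted by Benjamini-Hochberg within each of 28 comparisons and a gene was called at an adjusted p under 0.05.

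By rule, array values are given for the genes called in the averaged inhibitor comparison with a log2 change of at least 0.5 in size and for the 4 called genes with the largest change in every other comparison, and the 3 genes with the lowest adjusted p of each further list are named. All other named genes and values were picked after the values were seen. The genes and lists were chosen with earlier results of these data known. The fit was tested on simulated data. Alternatives covered batch handling, array quality, normalization, probe set choice, a filter on low values, the replicate number and single arrays left out.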

Additional observations from a re-analysis of the deposited data

Results flagged for a closer look

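The responses to the inhibitors differed between HaCaT-HRAS and HaCaT-Mock in 13 of the 34 genes, by limma's test of the difference itself. Of all genes tested 4.83% were called higher and 4.7% lower. The count was lower in batch J alone and with no batch term, as given below. The log2 difference, HaCaT-HRAS minus HaCaT-Mock, was 0.99 for HK2, 0.94 for BNIP3, 0.85 for VEGFA, 0.67 for PDK1, 0.43 for PFKP, 0.38 for ENO1, 0.37 for PKM, 0.36 for ANKRD37 and 0.26 for PFKM. It was -0.72 for PFKFB3, -0.52 for NDRG1, -0.36 for ADM and -0.30 for P4HA2. Of these, PKM (adjusted p = 0.029) and ANKRD37 (adjusted p = 0.046) lay nearest the threshold. Keratinocyte markers moved with this difference, 3 of 7 being lower in the response of HaCaT-HRAS and 0 higher, and their part in it was not tested.

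ADM was the one gene with a called difference between HaCaT-EGFR and HaCaT-Mock, with a response that was 0.42 ± 0.0907 (SE) higher on the log2 scale (adjusted p = 0.046 by limma). That call was lost when any of 17 of the 23 arrays was left out, with no batch term (adjusted p = 0.65), in batch J alone (adjusted p = 1) and with the replicate block (adjusted p = 0.27).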

How the results depend on the processing

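Each call of a single gene was counted once per alternative, apart from the alternatives that leave out a single array. Counted so, 3655 kept their direction and their side of the threshold, 294 fell below it and 9 reversed. Among these alternatives were batch J alone, the fit without the arrays in doubt and the average over the lines other than HaCaT-Mock. All 9 reversals were PKM in the model with no batch term, where it read 0.051 under the inhibitors, 0.20 in HaCaT-Mock, 0.16 in HaCaT-EGFR, 0.11 under gefitinib, 0.081 under cetuximab, -0.21 for HaCaT-HRAS minus HaCaT-Mock, -0.015 for siEGFR minus inhibitors, 0.21 in SCC1 and 0.17 in SCC25; the cause was not tested.

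The numbers of genes called moved by over 1.5 times as follows. The share of all genes called moved between settings too, as given above for several of them. The counts in this section therefore describe the settings and are no result about these genes. With no batch term they were 0 (HaCaT-EGFR, PBS), 2 (HaCaT-EGFR, scramble siRNA), 6 (HaCaT-HRAS, scramble siRNA), 1 (inhibitors in HaCaT-HRAS), 12 (inhibitors in HaCaT-PIK3CA), 0 (HaCaT-EGFR minus HaCaT-Mock response), 7 (HaCaT-HRAS minus HaCaT-Mock response), 5 (siEGFR in HaCaT-Mock and also in HaCaT-EGFR), 4 (siEGFR in HaCaT-HRAS), 6 (siEGFR in HaCaT-PIK3CA) and 2 (scramble siRNA with PBS). In batch J alone, which has fewer arrays, they were 0 and 8 for HaCaT-EGFR and HaCaT-HRAS under PBS, 1 and 8 under scramble siRNA, 0 and 11 for the inhibitors in HaCaT-HRAS and HaCaT-PIK3CA, 0 and 6 for the responses of HaCaT-EGFR and HaCaT-HRAS minus HaCaT-Mock, and 6 and 5 for siEGFR in HaCaT-Mock and HaCaT-HRAS. With only the compared groups in the model they were 0 and 10 for HaCaT-EGFR and HaCaT-HRAS under PBS, 8 for the inhibitors in HaCaT-PIK3CA, 3 for HaCaT-EGFR minus HaCaT-Mock, 9 for the inhibitors on scramble siRNA arrays and 7 for siEGFR in HaCaT-Mock.

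With array weights they were 8 for HaCaT-EGFR, 25 for HaCaT-HRAS and 6 for HaCaT-PIK3CA under PBS, 1 for HaCaT-PIK3CA under scramble siRNA, 14 for the inhibitors in HaCaT-HRAS, 6 and 3 for HaCaT-EGFR and HaCaT-PIK3CA minus HaCaT-Mock, and 14 for siEGFR in HaCaT-HRAS. The weights came from the gene-by-gene method, chosen after seeing the data because those of the default method did not converge. Without the arrays in doubt they were 6 and 4 for HaCaT-EGFR and HaCaT-PIK3CA under PBS, 1 for HaCaT-PIK3CA under scramble siRNA, and 3 and 2 for HaCaT-EGFR and HaCaT-PIK3CA minus HaCaT-Mock. With the GAPDH signal as a covariate 1 gene was called for HaCaT-PIK3CA under PBS.

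Samples with the same replicate number did not deviate together: over 190 pairs of groups r lay between -0.21 and 0.22 with a median of 0.0031. The replicate block was not run for the carcinoma lines and could not be fitted for the inhibitors on scramble siRNA arrays. With it 307 of 314 calls were kept, and the counts that moved were 0 for HaCaT-EGFR under PBS and 0 for HaCaT-EGFR minus HaCaT-Mock.

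Leaving out single arrays reversed 0 calls of single genes, and the counts ranged as follows: 27 to 28 (inhibitors), 19 to 23 (inhibitors, HaCaT-EGFR), 26 to 28 (afatinib v PBS), 0 to 1 (response of HaCaT-EGFR minus HaCaT-Mock), 22 to 24 (siEGFR minus inhibitors), 0 to 2 (HaCaT-EGFR, PBS), 26 to 29 (gefitinib v PBS), 24 to 25 (cetuximab v PBS), 4 to 8 (scramble siRNA with PBS v PBS), 16 to 20 (inhibitors on scramble siRNA arrays), 15 to 16 (siEGFR), 8 to 9 (siEGFR, HaCaT-EGFR), 4 to 4 (HaCaT-EGFR, scramble siRNA), 1 to 7 (inhibitors, HaCaT-HRAS), 10 to 15 (response of HaCaT-HRAS minus HaCaT-Mock), 12 to 14 (HaCaT-HRAS, PBS), 6 to 7 (siEGFR, HaCaT-HRAS), 10 to 12 (HaCaT-HRAS, scramble siRNA), 23 to 25 (inhibitors, HaCaT-Mock), 0 to 2 (response of HaCaT-PIK3CA minus HaCaT-Mock), 0 to 0 (HaCaT-PIK3CA, PBS), 23 to 24 (SCC1, PBS), 21 to 24 (SCC25, PBS), 8 to 12 (siEGFR, HaCaT-Mock), 0 to 0 (HaCaT-PIK3CA, scramble siRNA), 16 to 26 (inhibitors, HaCaT-PIK3CA), 10 to 10 (siEGFR, HaCaT-PIK3CA) and 24 to 26 (SCC1 v SCC25).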
